A study of Mus musculus with 6 samples.

Results

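The mitochondrial ribosomal protein genes were taken as every gene in the count table whose symbol began with Mrpl or Mrps followed by a number, with names ending in -ps (pseudogenes) left out. Of 83 such names 5 were pseudogenes, which left 78 genes of 49315 in the table. There were 49 Mrpl genes, named for the large subunit, and 29 Mrps genes, named for the small subunit. All 78 were annotated as protein-coding, lay on 17 chromosomes and passed the filter on low counts. The lowest count of any of them in any library was 26, for Mrpl53, and 402 for the others.

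The mitochondrial ribosome (mitoribosome) translates the few proteins that are encoded by mitochondrial DNA, which are core subunits of the respiratory chain and of ATP synthase. Its ribosomal RNAs are made from mitochondrial DNA, whereas all of its proteins are encoded in the nucleus, made in the cytosol and imported. Some of these proteins have bacterial homologues and others are found only in mitochondria. Skeletal muscle fibres are rich in mitochondria, and slow fibres more so than most fast fibres.

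RNA was sequenced from gastrocnemius muscles of male C57BL6J mice that received an intramuscular AAV9 injection at an age of 5 months, with harvest 5 months later. AAV9‐HSA‐CAAHR muscles (replicates 31, 34 and 36) received a mouse aryl hydrocarbon receptor that lacked its ligand-binding domain and is constitutively active. AAV9‐HSA‐GFP muscles (replicates 42, 43 and 46) received a green fluorescent protein, ZsGreen1. In both groups the human skeletal actin (HSA) promoter drove the transgene, which directs it to muscle fibres rather than the other cells of the muscle, and both groups carried AAV9. How many fibres each injection reached was not measured in these data. An AHR bound to its partner recognises the xenobiotic response element in DNA, and Cyp1a1 is its classical target. Uninjected muscle was not analysed here. The labels did not state whether the replicates came from separate animals, so p-values measure the spread between these libraries.

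Library totals lay between 43432994 and 58825752 counts. Values per library are given as TMM-scaled CPM, which relates the count of a gene to the library total after TMM (trimmed mean of M values) scaling. Ahr was at 9.99 to 22.9 CPM in AAV9‐HSA‐CAAHR and 1.86 to 2.51 CPM in AAV9‐HSA‐GFP muscles, and Cyp1a1 at 1234 to 1687 against 5.83 to 7.63 CPM, and both were higher in each muscle labelled CAAHR. Muscle markers were abundant, with a summed level of 9 fast-fibre genes of 139767 to 197629 CPM in AAV9‐HSA‐CAAHR and 197580 to 207416 CPM in AAV9‐HSA‐GFP. Of these 9 genes, 8 had a log2 fold change below 0 in AAV9‐HSA‐CAAHR against AAV9‐HSA‐GFP, with a median of -0.45 over the list. An adjusted p under 0.05 in edgeR was found for 2, both lower, beside 4.57% of all genes. Of the other marker lists, several had summed levels that did not overlap between the groups. Summed levels, first in AAV9‐HSA‐CAAHR and then in AAV9‐HSA‐GFP muscles, were 664 to 2825 and 235 to 472 CPM for 9 slow-fibre genes, 28.4 to 40.3 and 74.9 to 183 CPM for 10 immune-cell genes, and 3.11 to 16.8 and 31.5 to 82.2 CPM for 5 adipocyte genes. For 5 nerve genes they were 30.8 to 50.1 and 50.5 to 89.9 CPM. The ranges overlapped for 5 endothelial genes (149 to 217 and 144 to 190 CPM) and 5 fibroblast genes (227 to 454 and 355 to 429 CPM). In edgeR, 0 of the 9 slow-fibre and 0 of the 5 nerve genes had an adjusted p under 0.05, beside 7.6% of all genes. Of the immune-cell genes 5 of 10 were lower at that threshold, and of the adipocyte genes 3 of 5, beside 4.57% of all genes. No gene of these lists was at or under 3 counts in every library of both groups. In bulk RNA fewer cells of a type and less RNA per cell cannot be told apart, and the part of these marker lists in the results for the mitoribosome was not tested beyond a slow-fibre covariate.

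No mitoribosomal protein gene passed the test for a difference between the groups. With edgeR's quasi-likelihood test and Benjamini-Hochberg adjustment over all 15847 genes tested, 0 of 78 had an adjusted p under 0.05, beside 7.6% of all genes. By direction, 0 were higher, beside 3.04% of all genes, and 0 were lower, beside 4.57%. At an unadjusted p under 0.05 there were 3 of the 78 (3.85%), beside 23.9% of all genes. These were Mrpl14 and Mrps18a, with higher values in AAV9‐HSA‐CAAHR, and Mrps27, with lower values.

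The differences were also small in size. The median log2 fold change of AAV9‐HSA‐CAAHR against AAV9‐HSA‐GFP was 0.01 over the 78 genes and 0.01 over all genes tested. The interquartile range of the log2 fold changes was 0.15 for the mitoribosomal genes and 0.43 for all genes. Such a narrow range was not particular to them. It was 0.13 for 78 cytosolic ribosomal protein genes and 0.16 for 77 nuclear genes for subunits of oxidative phosphorylation. Their log2 fold changes ran from -0.26 to 0.52, with 44 above 0 and 34 below 0. An absolute log2 fold change over 0.25 was found for 4 of the 78 (5.13%), beside 43.4% of all genes, and one over 0.5 for 1 of them (1.28%), beside 20.5%. The 95% interval of the log2 fold change lay wholly within 1 of 0 for 77 genes (98.7%), beside 70.8% of all genes. It lay within 0.5 of 0 for 72 genes (92.3%), beside 37.6%. The 6 whose interval reached past 0.5, named after their values were seen, were Mrpl14, Mrpl19, Mrpl28, Mrpl53, Mrps11 and Mrps18a. The values were also more precise than those of genes at large. The median standard error of the log2 fold change was 0.11 for mitoribosomal and 0.16 for all genes, and the median within-group SD of log2 CPM was 0.13 and 0.20. Their median level was also higher, at 10.3 against 1.68 CPM per kb of exon for all genes, and its part in this was not tested.

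**Figure D1:**
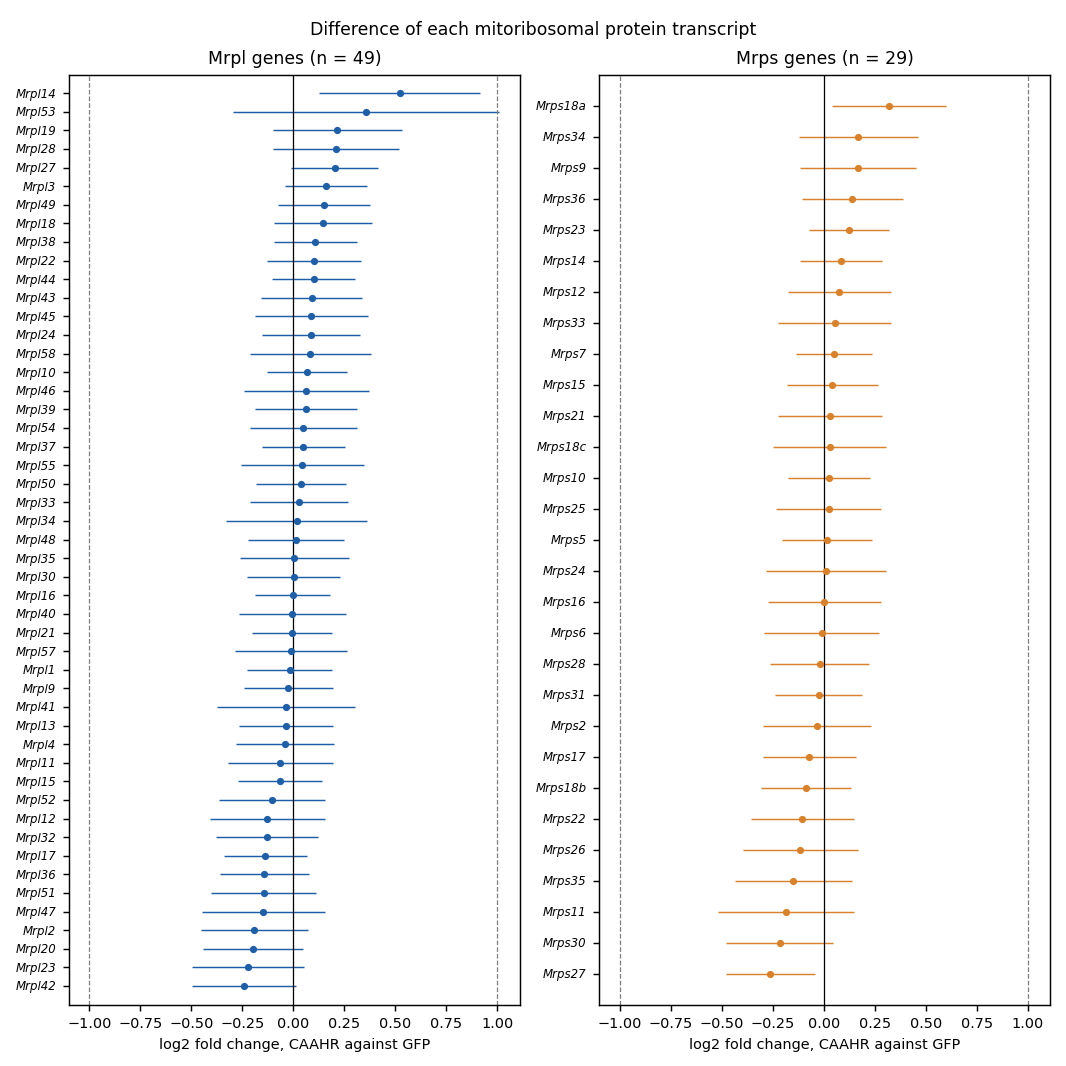
Log2 fold change of each of the 49 Mrpl genes (left) and 29 Mrps genes (right) in AAV9‐HSA‐CAAHR against AAV9‐HSA‐GFP muscles on the x axis, with points for the edgeR estimate, bars for its 95% interval and dashed lines at -1 and 1. Estimates run from -0.26 to 0.52, and the interval of 1 gene, Mrpl53, reaches past 1.

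The Mrpl genes had a median log2 fold change of 0.01, with 27 above and 22 below 0, and the Mrps genes one of 0.02, with 17 above and 12 below 0. Gene names do not always give the place of a protein, because the products of Mrps30 and Mrps18a sit in the large subunit and that of Mrps36 is now known as a component of the alpha-ketoglutarate dehydrogenase complex. Grouped by place, 51 large-subunit genes had a median of 0.01 and 26 small-subunit genes one of 0.01. By origin, 46 genes with a bacterial homologue had a median of 0.00 (25 above and 21 below 0), and 31 mitochondria-specific genes had one of 0.04 (18 above and 13 below 0). Within these, the medians were -0.01 for 30 large and 0.02 for 16 small subunit genes with a bacterial homologue, and 0.05 for 21 large and -0.06 for 10 small subunit genes specific to mitochondria.

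Taken as sums, the transcripts of each subunit differed more among the muscles of a group than between the groups. The summed level of the Mrpl genes was 1630, 1532 and 1705 CPM in AAV9‐HSA‐CAAHR replicates 31, 34 and 36, and 1479, 1624 and 1760 CPM in AAV9‐HSA‐GFP replicates 42, 43 and 46. The group means were 1622 ± 86.9 and 1621 ± 141 CPM (SD, n = 3). The summed level of the Mrps genes was 766, 775 and 830 CPM in AAV9‐HSA‐CAAHR and 693, 764 and 825 CPM in AAV9‐HSA‐GFP, in the same order, with means of 790 ± 34.5 and 761 ± 66.1 CPM (SD, n = 3). For both subunits the lowest library was AAV9‐HSA‐GFP replicate 42, and the groups overlapped. Over all 78 genes the group means were 2412 ± 115 and 2381 ± 207 CPM (SD, n = 3), a difference of 1.30%, whereas the highest library (AAV9‐HSA‐GFP replicate 46, 2585 CPM) was 1.19 times the lowest (AAV9‐HSA‐GFP replicate 42, 2172 CPM). The ratio of the Mrpl to the Mrps sum was 2.13, 1.98 and 2.06 in AAV9‐HSA‐CAAHR and 2.13 in each AAV9‐HSA‐GFP library. As a share of all counts, the 78 genes made up 0.251%, 0.229% and 0.261% in AAV9‐HSA‐CAAHR and 0.214%, 0.232% and 0.252% in AAV9‐HSA‐GFP muscles.

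**Figure D2:**
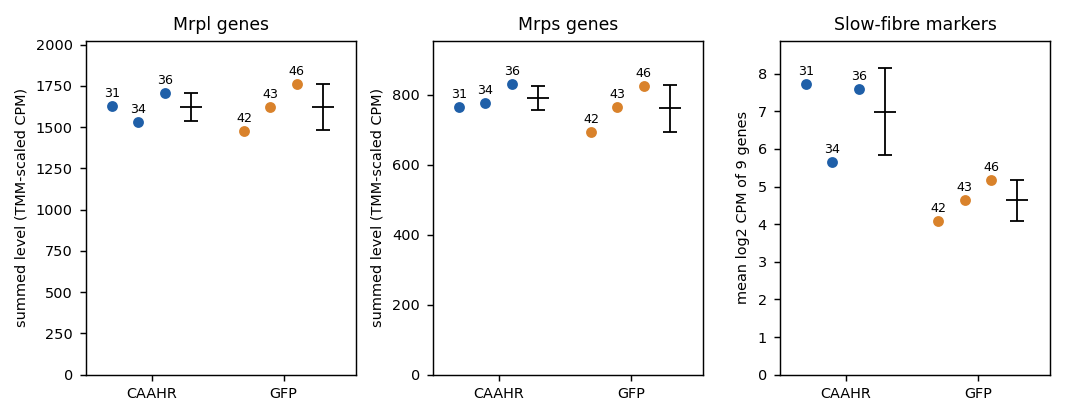
Summed TMM-scaled CPM of the Mrpl genes (left) and the Mrps genes (middle), and the mean log2 CPM of 9 slow-fibre marker genes (right), with a numbered point per library and bars for the group mean and SD (n = 3). The Mrpl and Mrps sums overlap between groups, and the slow-fibre score of AAV9‐HSA‐CAAHR (5.65 to 7.71) lies above that of AAV9‐HSA‐GFP (4.10 to 5.18).

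In some libraries most of the mitoribosomal genes moved together. In AAV9‐HSA‐GFP replicate 46, 68 of the 78 genes lay above their own mean over the 6 libraries, and in AAV9‐HSA‐CAAHR replicate 36 there were 65. In AAV9‐HSA‐GFP replicate 42 there were 5, and 38 genes had their lowest value there. The counts were 40, 29 and 34 in AAV9‐HSA‐CAAHR replicates 31 and 34 and AAV9‐HSA‐GFP replicate 43. Over all genes tested the share above their own mean stayed between 46.4% and 54.6% in every library. Such differences among libraries were not particular to the mitoribosomal genes. The 77 nuclear oxidative phosphorylation genes summed to 15839.5 and 20535 CPM in AAV9‐HSA‐GFP replicates 42 and 46. In AAV9‐HSA‐CAAHR replicates 34 and 36 they summed to 16714.6 and 20667.4 CPM. The 78 cytosolic ribosomal protein genes summed to 10894.6, 12736.5, 10644.2 and 12260.8 CPM in the same order. The median deviation of the mitoribosomal genes from their means, on the log2 scale, ran from -0.12 to 0.10 within AAV9‐HSA‐GFP and from -0.03 to 0.09 within AAV9‐HSA‐CAAHR.

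**Figure D3:**
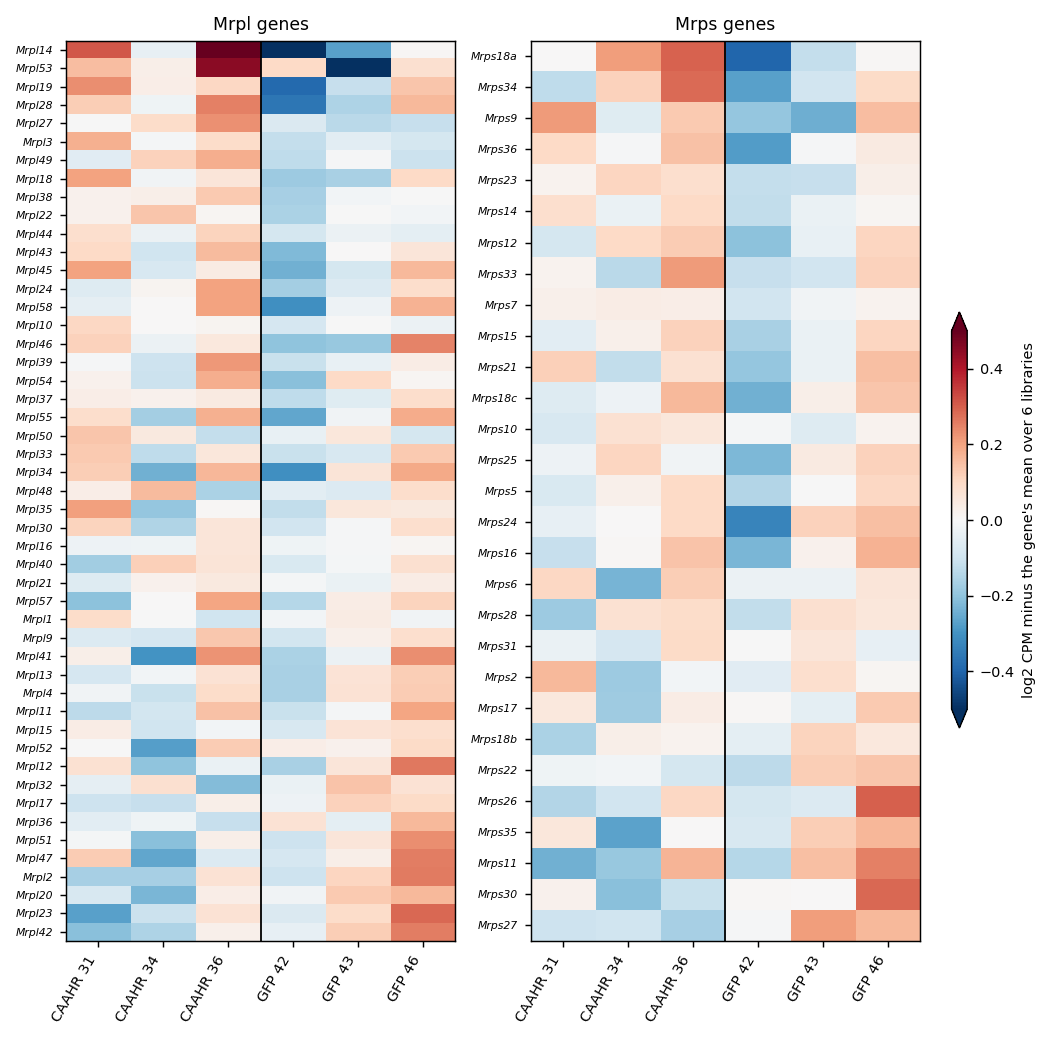
Log2 CPM minus the mean of the gene over 6 libraries (colour) for each Mrpl gene (left) and Mrps gene (right), in rows ordered by log2 fold change, with libraries in columns and a black line between the groups. Colours run along columns: AAV9‐HSA‐GFP replicate 42 is mostly blue (5 of 78 genes above their mean) and AAV9‐HSA‐GFP replicate 46 mostly red (68 of 78).

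The slow-fibre score, the mean log2 CPM of the 9 slow-fibre genes, was 7.71, 5.65 and 7.60 in AAV9‐HSA‐CAAHR and 4.10, 4.63 and 5.18 in AAV9‐HSA‐GFP muscles, and the groups did not overlap. In both groups the library with the lowest score, AAV9‐HSA‐CAAHR replicate 34 and AAV9‐HSA‐GFP replicate 42, also had the lowest summed mitoribosomal level. Across groups the order differed, since AAV9‐HSA‐GFP replicate 46, with the highest sum (2585 CPM), scored below each AAV9‐HSA‐CAAHR library, and AAV9‐HSA‐CAAHR replicate 31, with the highest score, had a sum of 2395 CPM. With the score as a covariate, the median log2 fold change of AAV9‐HSA‐CAAHR against AAV9‐HSA‐GFP was -0.17 for the mitoribosomal genes and 0.00 for all genes, and 60 of the 78 lay below 0. At an unadjusted p under 0.05, 11 of the 78 were then lower (14.1%), beside 10.4% of all genes, and 0 had an adjusted p under 0.05, beside 2.74% of all genes. Because the score itself separated the groups, slow-fibre content and transgene cannot be told apart in these 6 libraries.

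Of single genes, Mrpl14 had the largest log2 fold change. Its product is a large-subunit protein with a bacterial homologue. It was at 48.2, 37.7 and 56.1 CPM in AAV9‐HSA‐CAAHR replicates 31, 34 and 36, and at 26.9, 32.2 and 39.0 CPM in AAV9‐HSA‐GFP replicates 42, 43 and 46. The groups overlapped, because AAV9‐HSA‐CAAHR replicate 34 lay below AAV9‐HSA‐GFP replicate 46. The log2 fold change was 0.52 ± 0.17 (SE; 95% interval 0.12 to 0.92), with an unadjusted p of 0.0159 and an adjusted p of 0.108 in edgeR. This miss depended on the fit. The adjusted p was 0.0459 with the DESeq2 Wald test, 0.00012 in edgeR without a filter on low counts (where the SE was 0.12), 0.0277 in edgeR with offsets for gene length and GC content, and 0.0280 in edgeR without AAV9‐HSA‐CAAHR replicate 34 (log2 fold change 0.65). Without the filter the SE was nearly the same for Mrpl14 (0.1155) and Mrps18a (0.1153), whereas with it they were 0.174 and 0.124. The log2 fold change of Mrpl14 with the slow-fibre covariate was -0.13. Mrpl14 shared 106 exonic bases (11.2% of its exons) with Tmem63b on the opposite strand, and Tmem63b was higher in AAV9‐HSA‐CAAHR muscles (102 to 116 against 78.9 to 87.1 CPM, log2 fold change 0.38, edgeR adjusted p 0.0410, and 0.0886 to 0.163 without any 1 library other than AAV9‐HSA‐CAAHR replicate 34). Its call was also lost with upper-quartile scaling (0.31, edgeR adjusted p 0.0792) and with the covariate (0.21, 0.520). Whether the libraries kept the strand was not stated, so the part of Tmem63b reads in the Mrpl14 counts was not tested.

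Mrps18a, whose product is 1 of 3 related proteins (with those of Mrps18b and Mrps18c) that take different places in the mitoribosome, was at 53.0, 61.2 and 65.0 CPM in AAV9‐HSA‐CAAHR and 40.2, 48.8 and 53.1 CPM in AAV9‐HSA‐GFP, in the order of replicates above. The groups overlapped narrowly, in that AAV9‐HSA‐CAAHR replicate 31 lay just under AAV9‐HSA‐GFP replicate 46. The log2 fold change was 0.32 (95% interval 0.04 to 0.60), with an unadjusted p of 0.0284 and an adjusted p of 0.152 in edgeR. Without a filter on low counts the adjusted p was 0.0442. Its exons overlapped no other annotated gene. The related Mrps18b and Mrps18c had log2 fold changes of -0.09 and 0.03.

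Mrps27, which encodes a small-subunit protein of the pentatricopeptide repeat family, was the only one of the 78 whose values were lower in every AAV9‐HSA‐CAAHR library than in any AAV9‐HSA‐GFP library. It was at 18.1, 18.2 and 17.4 CPM in AAV9‐HSA‐CAAHR and 19.4, 22.5 and 21.8 CPM in AAV9‐HSA‐GFP. The log2 fold change was -0.26 (95% interval -0.48 to -0.04), with an unadjusted p of 0.0238 and an adjusted p of 0.137 in edgeR. It was a shift of small size in tightly grouped values. A noncoding transcript on the opposite strand shared 24.2% of its exons and was at 0.527 to 0.872 CPM. The part of this overlap in the Mrps27 counts was not tested.

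Groups that did not overlap were found for 7 of the 78 genes (8.97%), beside 30.3% of all genes. They were lower for Mrps27 (1.28%, beside 14.2% of all genes) and higher for 6 genes (7.69%, beside 16.1%). The 6 were Mrpl3, Mrpl10, Mrpl22, Mrpl27, Mrpl38 and Mrps7, of which Mrpl22, Mrpl38 and Mrps7 were named after their values were seen. Mrpl27 was at 20.0, 21.3 and 23.5 CPM in AAV9‐HSA‐CAAHR and 19.0, 18.3 and 18.5 CPM in AAV9‐HSA‐GFP, and had a log2 fold change of 0.20 with an edgeR adjusted p of 0.231 (0.0488 with offsets for gene length and GC content). Mrpl3 was at 32.0 to 36.5 against 29.7 to 31.1 CPM (log2 fold change 0.16). The others were parted by narrow gaps, as for Mrpl10 with 24.7 to 26.5 against 23.3 to 24.6 CPM and Mrps7 with 56.8 to 57.3 against 52.1 to 56.4 CPM.

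**Figure D4:**
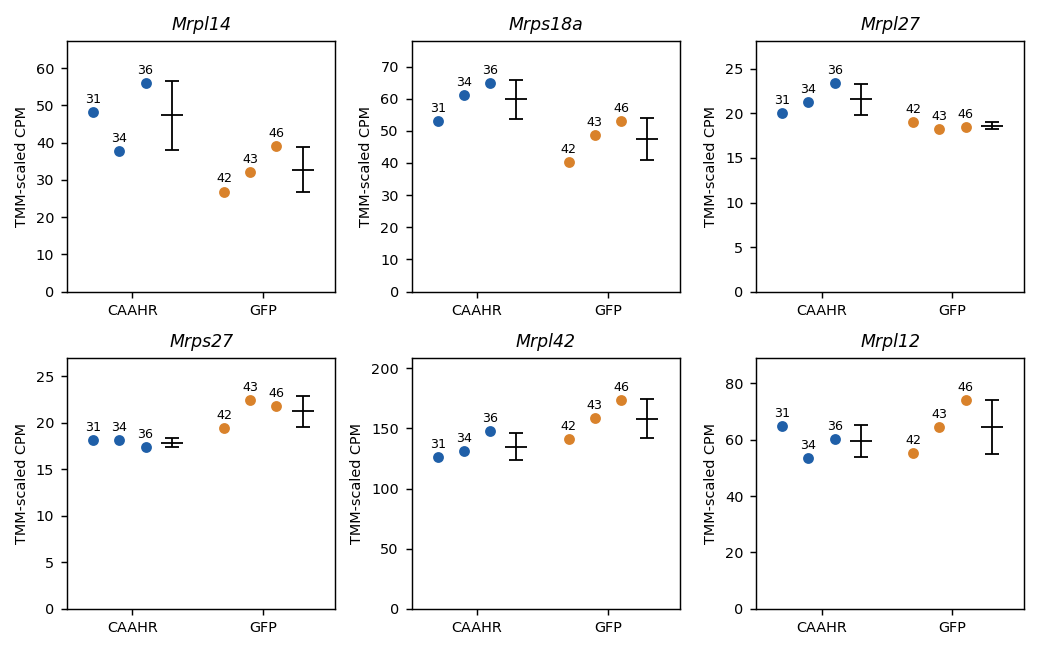
TMM-scaled CPM of 6 mitoribosomal protein genes, with a numbered point per library and bars for the group mean and SD (n = 3). Mrpl27 and Mrps27 are the 2 of these 6 genes whose groups do not overlap, and the edgeR adjusted p of each gene is above 0.05.

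Among the genes with lower values, Mrpl42 was at 126, 131 and 148 CPM in AAV9‐HSA‐CAAHR and 141, 159 and 174 CPM in AAV9‐HSA‐GFP, so that AAV9‐HSA‐CAAHR replicate 36 lay inside the range of AAV9‐HSA‐GFP. Its log2 fold change was -0.24, with an edgeR adjusted p of 0.230. The next were Mrps30 (-0.22), Mrpl23 (-0.22), Mrpl20 (-0.20) and Mrpl2 (-0.19). Higher values with overlapping groups were found for Mrpl19 (log2 fold change 0.22) and Mrpl28 (0.21). None of these 7 genes had an unadjusted p under 0.05.

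Of the genes of distinct roles, Mrps18a (log2 fold change 0.32) and Mrps30 (-0.22) are given above, and the others lay nearer 0. Mrpl12 and Mrpl10 encode proteins of the stalk of the large subunit, where translation factors bind, and the Mrpl12 protein also binds the mitochondrial RNA polymerase. Mrpl12 was at 65.0, 53.7 and 60.3 CPM in AAV9‐HSA‐CAAHR and 55.1, 64.4 and 74.2 CPM in AAV9‐HSA‐GFP, with overlapping groups and a log2 fold change of -0.13 (95% interval -0.41 to 0.15). That of Mrpl10 was 0.06 (-0.13 to 0.26). Mrpl58, a peptidyl-tRNA hydrolase that frees stalled ribosomes, had a log2 fold change of 0.08 (-0.21 to 0.38), and Mrpl44, whose product has a fold like that of RNase III, one of 0.10 (-0.10 to 0.30). Mrps12, which encodes a protein of the decoding centre, was at 0.08 (-0.17 to 0.33). Mrps36 was at 0.14 (-0.11 to 0.39).

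Levels between genes were compared per kb of exon, as the mean over the 6 libraries. Mrps21 was the highest at 78.5 CPM per kb, followed by Mrpl2 (48.2), Mrpl18 (45.2) and Mrpl14 (42.2 CPM per kb). The highest Mrps genes after Mrps21 were Mrps23 (37.1) and Mrps28 (35.2 CPM per kb). The lowest, named after their values were seen, were Mrps35 (1.25), Mrpl53 (1.42) and Mrps30 (2.21 CPM per kb). The length counts every annotated exon, 8631 bases for Mrps35 and 790 for Mrpl53, so the rank depends on it. Before division by length Mrps35 was at 10.8 CPM and Mrpl53 at 1.12 CPM. The median was 12.5 CPM per kb for the Mrpl and 7.25 for the Mrps genes. The genes of highest level had log2 fold changes of 0.03 (Mrps21), -0.19 (Mrpl2), 0.14 (Mrpl18), 0.52 (Mrpl14), 0.12 (Mrps23) and -0.02 (Mrps28). Exons of 33 of the 78 genes overlapped another annotated gene, and for 17 by at least 10% of their exonic bases. Mrpl53 shared 88.0%, Mrps25 69.8% and Mrps34 63.4% (chosen for their overlap), and levels of these genes are uncertain. The median log2 fold change was 0.00 over the 61 genes that shared less than 10% and 0.06 over the 17.

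The mitoribosomal genes were spread over the genome, and Mrpl14 and Mrps18a lay on the same chromosome. The positions below are on GRCm38. Mrpl14 spans chr17:45686322-45698495 and Mrps18a chr17:46110986-46128910, both on the plus strand, with their starts 424.7 kb apart. Mrpl2 starts 535.2 kb beyond Mrps18a and had lower values (log2 fold change -0.19). Of the 8 genes on chromosome 17, 6 lay above 0 and 2 below. Mrps27 spans chr13:99344786-99415562 on the plus strand.

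The promoters were searched because the transgene is a transcription factor with a known DNA motif. RefSeq promoter windows (GRCm38.p6, 250 bases before to 50 after the start) were found for 69 of the 78 genes, in 75 windows. The letters sought on both strands were GCGTG (core of the xenobiotic response element bound by AHR), TNGCGTG (a longer form, which contains the core), GCGCATGC (core of the NRF1 element), CCGGAAG (ETS factors such as GABPA) and AAGATGGCG (YY1). NRF1, GABPA and YY1 are known regulators of nuclear genes for mitochondrial proteins. The windows of the 3 genes with an unadjusted p under 0.05 are printed up to the annotated gene start, followed by that of Mrpl9 (chosen after its values were seen), which holds both the AHR core and the NRF1 core and had a log2 fold change of -0.02. Capitals mark the AHR core, ETS and NRF1 letters or their reverse complements. The NRF1 match of Mrpl9 lies in a palindrome, so it counts once on each strand. The stretches are chr17:45686099-45686321 (Mrpl14), chr17:46110754-46110985 (Mrps18a), chr13:99344536-99344785 (Mrps27) and chr3:94443086-94443317 (Mrpl9), all on the plus strand, 5′ to 3′.
Mrpl14: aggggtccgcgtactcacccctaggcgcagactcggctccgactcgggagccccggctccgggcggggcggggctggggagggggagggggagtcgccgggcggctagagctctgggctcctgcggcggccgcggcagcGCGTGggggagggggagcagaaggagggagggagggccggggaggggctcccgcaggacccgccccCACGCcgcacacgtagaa
Mrps18a: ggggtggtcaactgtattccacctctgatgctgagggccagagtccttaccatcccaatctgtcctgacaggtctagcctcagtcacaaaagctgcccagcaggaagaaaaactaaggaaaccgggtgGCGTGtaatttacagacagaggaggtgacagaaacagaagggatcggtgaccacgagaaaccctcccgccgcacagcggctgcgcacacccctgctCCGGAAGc
Mrps27: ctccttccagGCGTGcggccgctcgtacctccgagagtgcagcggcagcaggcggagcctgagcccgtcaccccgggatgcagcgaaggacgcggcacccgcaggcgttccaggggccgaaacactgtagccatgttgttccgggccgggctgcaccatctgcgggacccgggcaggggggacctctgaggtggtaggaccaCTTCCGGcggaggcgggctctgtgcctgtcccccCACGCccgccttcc
Mrpl9: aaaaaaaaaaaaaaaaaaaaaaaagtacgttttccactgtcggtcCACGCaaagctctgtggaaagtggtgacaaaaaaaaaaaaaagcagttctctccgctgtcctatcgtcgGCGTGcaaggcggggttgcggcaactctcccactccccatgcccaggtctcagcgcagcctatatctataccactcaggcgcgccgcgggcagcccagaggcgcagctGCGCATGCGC

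The AHR core stood 2 times in the stretches of Mrpl14, Mrps27 and Mrpl9 and 1 time in that of Mrps18a. Over all windows, 56.0% of those of mitoribosomal genes held GCGTG, beside 48.4% of those of all genes tested and 32.4% of all promoters. The longer TNGCGTG was in 6.67%, beside 7.49% and 5.07%. The median log2 fold change was 0.01 over the 38 mitoribosomal genes with GCGTG and 0.02 over the 31 without. It was 0.08 over the 5 genes with TNGCGTG, which include Mrps18a, and 0.01 over the 64 without. The ETS letters CCGGAAG were in 34.7% of mitoribosomal windows, beside 15.6% of those of all genes tested and 8.86% of all promoters. GCGCATGC was in 10.7%, beside 4.69% and 2.71%, and AAGATGGCG in 10.7%, beside 2.66% and 1.40%. The median log2 fold changes of the genes with these letters were 0.03 (26 genes), 0.00 (8 genes) and -0.07 (8 genes). Those of the genes without them were 0.00 (43 genes), 0.02 (61 genes) and 0.02 (61 genes). A match of letters is a description of the sequence and not of binding.

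**Figure D5:**
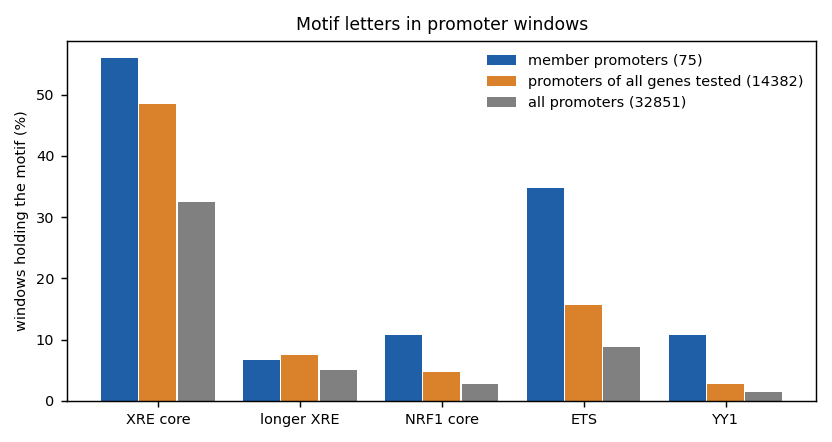
Percent of promoter windows that hold each motif on either strand, for 75 windows of mitoribosomal protein genes, 14382 of all genes tested and 32851 of all promoters. The ETS letters stand in 34.7% of mitoribosomal windows and 15.6% of windows of genes tested, and the AHR core (XRE core) in 56.0% and 48.4%.

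Other genes of mitochondrial translation were taken from fixed lists. Dap3, Ptcd3, Aurkaip1 and Chchd1 encode small-subunit proteins and Gadd45gip1 a large-subunit protein, all under other names. Their log2 fold changes were 0.03, 0.03, 0.07, -0.02 and 0.24, and 0 of 5 had an adjusted p under 0.05 in edgeR, beside 7.6% of all genes. Gadd45gip1 was at 27.8, 25.04 and 31.7 CPM in AAV9‐HSA‐CAAHR and 21.8, 22.5 and 26.4 CPM in AAV9‐HSA‐GFP, with overlapping groups and an edgeR adjusted p of 0.245.

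Of 26 mitoribosome assembly genes, 0 were higher and 1 was lower at an adjusted p under 0.05 (edgeR), beside 3.04% and 4.57% of all genes, with a median log2 fold change of -0.02. The gene that fell was Malsu1, whose product keeps the subunits from joining early during assembly. It was at 18.9, 18.4 and 18.5 CPM in AAV9‐HSA‐CAAHR and 22.5, 23.7 and 23.3 CPM in AAV9‐HSA‐GFP, so that the groups stood clearly apart. The log2 fold change was -0.33 ± 0.09 (SE) and an edgeR adjusted p of 0.0486. The call was lost without any 1 of the 6 libraries, with adjusted p-values of 0.0704 to 0.172 in edgeR and a log2 fold change of -0.35 to -0.31. It was also lost in edgeR with library size only (-0.25, adjusted p 0.102), without a filter on low counts (-0.32, 0.0847), with length and GC offsets (-0.28, 0.0737) and with the slow-fibre covariate (-0.38, 0.286). None of the 15 translation factor genes tested had an adjusted p under 0.05, beside 7.6% of all genes, and their median log2 fold change was 0.05. At an unadjusted p under 0.05 there was 1, beside 23.9% of all genes, namely Gfm2 (named after its values were seen), a factor of ribosome recycling, with a log2 fold change of 0.26 and an edgeR adjusted p of 0.117. Of 20 mitochondrial tRNA synthetase and related genes 0 were called, beside 7.6% of all genes, with 10 above and 10 below 0.

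Of 11 regulators of mitochondrial biogenesis, 0 were higher and 1 was lower at an adjusted p under 0.05 (edgeR), again beside 3.04% and 4.57% of all genes. The gene was Myc, a transcription factor of growth and ribosome production, at 2.64, 4.43 and 3.28 CPM in AAV9‐HSA‐CAAHR and 7.43, 10.3 and 6.88 CPM in AAV9‐HSA‐GFP. Its log2 fold change was -1.26, with an edgeR adjusted p of 0.0111. Without AAV9‐HSA‐CAAHR replicate 36 it was -1.23 with an adjusted p of 0.0537, and the covariate for slow fibres gave -0.67 with an adjusted p of 0.336. Immune-cell markers were lower in the same libraries, and their part in the Myc value was not tested. Gabpa, named after its values were seen, had a log2 fold change of 0.35 and an edgeR adjusted p of 0.0653.

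Beside these stood larger families of protein synthesis and of the respiratory chain. Of 78 cytosolic ribosomal protein genes 0 were called (edgeR, adjusted), beside 7.6% of all genes, 5 were lower at an unadjusted p under 0.05, beside 12.6%, and 67 lay below 0 with a median log2 fold change of -0.10. Many of them have processed pseudogenes that can share reads, so single values are uncertain. Of 77 nuclear genes for subunits of oxidative phosphorylation 0 were called. At an unadjusted p under 0.05, 6 were higher, beside 11.3% of all genes, and 1 was lower, beside 12.6%, and 62 lay above 0 with a median log2 fold change of 0.10. The median of the mitoribosomal genes, 0.01, lay between those of these families. How many lay on each side of 0 depends on the scaling, since with upper-quartile scaling 22 of the 78 mitoribosomal genes were above 0 and with library size alone 60, while the median of all genes tested moved to -0.06 and 0.09.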

How the data were processed

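RNA was sequenced after poly(A) selection from 6 muscles in 2 groups of 3, mapped to groups by their labels. As described by the authors, Trimmomatic 0.36 trimmed the reads, STAR 2.5.2b placed them on GRCm38, and featureCounts summed unique reads in exons. The deposited values are whole-number counts per gene, not normalized and not pooled. Strandedness was not stated.

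The analysis used edgeR 4.0.16 under R 4.3.3, with filterByExpr, TMM scaling and the robust quasi-likelihood F test on the whole table, with Benjamini-Hochberg adjustment. Positions and exon overlaps came from GENCODE release 21 for mouse, which held 99.5% of identifiers. For lists, counts and medians are given, with no test. Log2 CPM used a prior count of 2. Intervals are 95%. Alternatives were DESeq2 size factors, upper-quartile scaling, library size only, no filter or at least 10 counts in every library, the DESeq2 1.42.0 Wald test (the authors' tool), no robust estimation, a slow-fibre covariate, length and GC offsets, and leaving out each library. With DESeq2 the authors also set a threshold on the fold change, which was not used here. The calculations were tested on simulated data.

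Members and lists were chosen with earlier results of these data known. Genes named were members with an adjusted p under 0.05, the 6 higher and 6 lower with the smallest p, the 3 highest per kb of each subunit, members of distinct role, genes of the complex with other names, and called genes of other pathway lists. For 1 listed gene, Mtrfr, no value was matched. Protein sequences were not used here.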

Additional observations from a re-analysis of the deposited data

How the results depend on the processing

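No paired analysis was possible because AAV9‐HSA‐CAAHR replicate numbers differ from those of AAV9‐HSA‐GFP. The count of mitoribosomal genes with an adjusted p under 0.05 was 0 and became 2 without a filter on low counts (Mrpl14 and Mrps18a), 1 with the DESeq2 Wald test (Mrpl14) and 2 with length and GC offsets (Mrpl14 and Mrpl27). Those settings called 8.62%, 12.1% and 9.83% of all genes. Leaving out 1 library gave 0 to 1. The 1 (Mrpl14) was found without AAV9‐HSA‐CAAHR replicate 34, where 10.7% of all genes were called. Leaving out any other library gave 0, beside 3.28% to 5.17% of all genes. The median log2 fold change of the Mrpl genes was 0.093 with library size only, -0.19 with the slow-fibre covariate and 0.11 with length and GC offsets, and that of the Mrps genes was 0.098, -0.15 and 0.13 in the same settings. The median of all genes tested was 0.090, -0.0035 and 0.063 in those settings. Leaving out 1 library gave medians of -0.04 to 0.06 for the Mrpl and -0.05 to 0.07 for the Mrps genes. The difference of the summed level, 30.9 CPM, ran from -74.1 to 133 CPM when 1 library was left out and was 146 CPM with library size only. Of 480 checks of 32 named genes 411 kept direction and side of the threshold, 6 passed it newly, 19 (of Malsu1, Myc and Tmem63b) no longer passed it and 44 changed sign. Signs changed with upper-quartile scaling for Aurkaip1 (-0.0053), Dap3 (-0.044), Mrpl10 (-0.0079), Mrps18c (-0.045), Mrps21 (-0.043) and Ptcd3 (-0.042), and with library size only for Chchd1 (0.063) and Mrps28 (0.060). With the slow-fibre covariate they did for Dap3 (-0.0019), Gadd45gip1 (-0.10), Ptcd3 (-0.18), Mrpl10 (-0.017), Mrpl14 (-0.13), Mrpl18 (-0.12), Mrpl19 (-0.11), Mrpl28 (-0.19), Mrpl3 (-0.0008), Mrpl44 (-0.044), Mrpl58 (-0.17), Mrps18c (-0.18), Mrps21 (-0.32), Mrps28 (0.029) and Mrps36 (-0.10), and with length and GC offsets for Chchd1 (0.14), Mrpl12 (0.0155), Mrps18b (0.0305) and Mrps28 (0.14). Leaving out 1 library gave -0.022 to 0.15 for Aurkaip1, -0.093 to 0.026 for Chchd1, -0.0033 to 0.077 for Dap3, -0.079 to 0.087 for Ptcd3, -0.036 to 0.20 for Mrpl58, -0.0028 to 0.15 for Mrps12, -0.075 to 0.11 for Mrps18c, -0.052 to 0.12 for Mrps21 and -0.085 to 0.055 for Mrps28. The cause was not tested. Leaving out genes that shared at least 10% of their exons, and grouping by place in the mitoribosome, were chosen after seeing the data and kept the medians within the spread of replicates.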
